A study of Mus musculus with 10 samples.

Results

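CD44 is a cell surface glycoprotein that binds the matrix polymer hyaluronan, and 10 genes around it were followed here in mouse liver. They were chosen by symbol: Cd44 itself, a further hyaluronan receptor (Hmmr), an enzyme that makes hyaluronan (Has2), 2 that cut it (Hyal1, Hyal2), the ligands versican (Vcan) and osteopontin (Spp1), and the linker genes ezrin (Ezr), moesin (Msn) and radixin (Rdx). All 10 symbols were present among the 24537 in the table of counts, and 9 passed the filter on low counts. Has2 did not: 1 count was found in 1 of the 10 livers and 0 in the other 9.

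Hyaluronan is a long sugar chain made at the cell membrane by the Has synthases and cut by hyaluronidases such as HYAL1 in lysosomes and HYAL2 at the cell surface. In liver, stellate cells are a main source of it, and sinusoidal endothelium clears it through the scavenger receptor stabilin-2. CD44 is abundant on leukocytes and low on resting hepatocytes. Its short cytoplasmic tail binds ezrin, radixin and moesin (together ERM), which tie membrane proteins to cortical actin, and radixin is known as the main ERM protein of hepatocytes.

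RNA was taken from whole livers of virus-injected male mice. The Cd44 vector was AAV8-TBG-saCas9-U6-sgCd44, an adeno-associated virus in which the hepatocyte promoter TBG drives the small Cas9 of Staphylococcus aureus beside a Cd44 guide RNA. Livers labelled old Cd44 knockout (25 months, virus at 23 months, n = 4) carried guide 4 (replicates 1 and 2) or guide 2 (replicates 3 and 4). Controls are labelled Rosa26-KO, after a locus commonly used as a neutral target, and were young (9 months, virus at 7 months, n = 3) or old (25 months, virus at 23 months, n = 3). No untreated mice were among the livers analysed, and the vector is spelled out for the Cd44 guide alone. Nothing in the labels says how the animals were housed or bred, so p-values measure only the spread between these livers. The promoter limits Cas9 to hepatocytes, while the RNA is that of all liver cells.

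Libraries held 15821198 to 21710228 counts. Levels are given as CPM (counts relative to the library total, scaled with TMM factors), and 3 counts, taken as the detection floor, correspond to 0.131 to 0.198 CPM. The summed CPM of 8 hepatocyte markers was 82057 to 136900 in every liver, with 0 of the 8 missing. Old control replicate 2 stood apart in its blood cell markers. Its 8 neutrophil markers summed to 259.7 CPM against 7.35 to 31.1 in the other 9 livers, and its 6 megakaryocyte markers to 95.6 against 3.37 to 16.0. The neutrophil marker Ly6g was at 0 in every young liver. With age 5 of 7 neutrophil markers tested, 3 of 4 of megakaryocytes and 4 of 7 of B and plasma cells were called higher, among them S100a8, Pf4 and Cd79b with log2 fold changes of 3.55, 5.13 and 3.03 (1 marker of each list without old control replicate 2), and 2 of 8 hepatocyte markers (Hnf4a and Tat, at -0.96 and -0.84) were called lower (0 without it). The library name of old control replicate 3 lies outside the run of the other names, and whether it was prepared apart is not given in the sources used here. The age comparison called 3172 genes (22.8% of those tested, with 14.1% called higher), 5327 without that liver and 1032 without old control replicate 2. Counts of calls with age in marker and gene lists are also given without old control replicate 2. Without young replicate 2, 396 genes were called with age, among them 2 of 8 endothelial and 1 of 9 stellate cell and fibroblast markers. In that fit 0 markers of the other cell type lists were called.

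The promoters of Cd44, Msn and Ezr are shown because these 3 members moved most alike across the livers among those that varied (values are given with Cd44 and the ERM genes). Ezr varied mainly through old control replicate 2, at 23.9 CPM against 11.6 CPM in the next highest liver. Each run covers 250 bases before to 30 after the start of transcription, 5′ to 3′ on the gene's strand, from RefSeq on GRCm38.p6, and capitals mark motif letters. The windows lie at chr2:102901636-102901915 on the minus strand, chrX:96095795-96096074 on the plus strand and chr17:6782751-6783030 on the minus strand.
Cd44: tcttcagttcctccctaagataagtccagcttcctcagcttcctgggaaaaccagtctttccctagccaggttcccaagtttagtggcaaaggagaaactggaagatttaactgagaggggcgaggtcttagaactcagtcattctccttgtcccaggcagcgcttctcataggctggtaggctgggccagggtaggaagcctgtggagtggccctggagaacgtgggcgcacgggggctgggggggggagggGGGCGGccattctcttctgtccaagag
Msn: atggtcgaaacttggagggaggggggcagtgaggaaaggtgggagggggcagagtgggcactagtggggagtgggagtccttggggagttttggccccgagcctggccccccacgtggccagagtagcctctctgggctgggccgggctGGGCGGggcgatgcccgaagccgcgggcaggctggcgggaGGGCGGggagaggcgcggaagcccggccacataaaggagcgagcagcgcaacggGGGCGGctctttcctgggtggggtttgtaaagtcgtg
Ezr: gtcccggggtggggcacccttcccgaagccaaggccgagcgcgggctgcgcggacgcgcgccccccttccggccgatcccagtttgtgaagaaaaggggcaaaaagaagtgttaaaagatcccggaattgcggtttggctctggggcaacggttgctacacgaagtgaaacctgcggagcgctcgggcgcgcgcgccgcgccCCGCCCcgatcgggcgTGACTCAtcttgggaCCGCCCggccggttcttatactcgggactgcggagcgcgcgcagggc

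Motifs searched on both strands were the GC box GGGCGG, the AP-1 site TGANTCA, the STAT site TTCNNNGAA and the TATA box TATAAA, and no matches overlapped in these windows. The GC box was found 1 time in Cd44, 3 times in Msn and 2 times in Ezr, and 34.7% of 32851 mouse promoter windows of this length hold it. It was not particular to these 3 members. Windows of Hmmr, Hyal1, Hyal2, Vcan and Rdx held it too, while those of Spp1 did not. The AP-1 letters were found 1 time in Ezr, against 7.46% of all windows. The letters of the STAT site (7.83% of windows) and TATA box (13.1%) were in none of the 3. Msn and Ezr were rich in G and C, at 69.3% and 67.9%, against 57.1% in Cd44 and a median of 52.5% over all windows. RefSeq windows were matched for 9 of the 10 genes.

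Compared per kilobase of exon, the young livers gave an order of levels among the 10 genes. Spp1 was highest at 39.2 ± 15.3 CPM per kilobase (SD, n = 3), followed by Rdx at 27.5 ± 0.491, and the values of these neighbours overlapped. Hyal1 at 16.7 ± 1.79 and Hyal2 at 15.4 ± 1.16 came next and overlapped each other. Msn followed at 5.29 ± 0.656, overlapping neither neighbour. Ezr at 2.67 ± 0.281 and Cd44 at 1.87 ± 0.517 overlapped, and Hmmr at 0.0766 ± 0.050 and Vcan at 0.0496 ± 0.0212 were lowest of those detected. Radixin was thus the most abundant of the ERM genes, and the mean of Cd44 stood below those of all 3, although Cd44 and Ezr overlapped. Lengths are union exons of GENCODE M21, in which the long optional exons of Vcan are counted in full.

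Cd44 (chromosome 2, 102811141 to 102901665, minus strand, 6776 exon bases) was examined first, as the targeted gene. In young livers it had 16.6, 11.1 and 10.1 CPM in replicates 1 to 3. In old controls the values were 14.2, 29.99 and 25.9 CPM. Guide 4 livers gave 18.9 and 29.01 CPM, and guide 2 livers 17.6 and 13.1 CPM. The 3 highest livers were old control replicates 2 and 3 and a guide 4 liver, and the lowest old livers lay within the young range. The groups overlapped in each comparison with 3 or 4 livers a side.

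Between old and young controls the log2 fold change of Cd44 was 0.89 (SE 0.33, 95% interval 0.17 to 1.60), a 1.85-fold higher level that missed the threshold with an edgeR adjusted p of 0.0713. Without old control replicate 2 it was 0.66, with an edgeR adjusted p of 0.235. In DESeq2 it passed, with an adjusted p of 0.042 at a log2 fold change of 0.89, and it passed in edgeR without old control replicate 1, with an adjusted p of 0.0257. The call for Cd44 with age thus turned on the tool and on single livers.

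Between the livers labelled knockout and the old controls, the log2 fold change of Cd44 was -0.25 (edgeR adjusted p 0.896, SE 0.30). It was -0.026 without old control replicate 2 and -0.50 without old control replicate 1. Its 95% interval, as a ratio of whole-liver RNA, ran from 0.535 to 1.33. The guide 2 livers gave a ratio of 0.658 with an interval of 0.392 to 1.10, and the guide 4 livers a ratio of 1.03 with an interval of 0.62 to 1.70. Both guide 4 livers lay above both guide 2 livers, a log2 difference of 0.64 with an SE of 0.36 and an edgeR adjusted p of 0.99955. Counts summed over a gene do not show whether its sequence was edited, and the total over all liver cells does not show its level in hepatocytes. The label of the knockout was therefore not checked by these counts, and the directions given for it rest on the label.

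**Figure D1:**
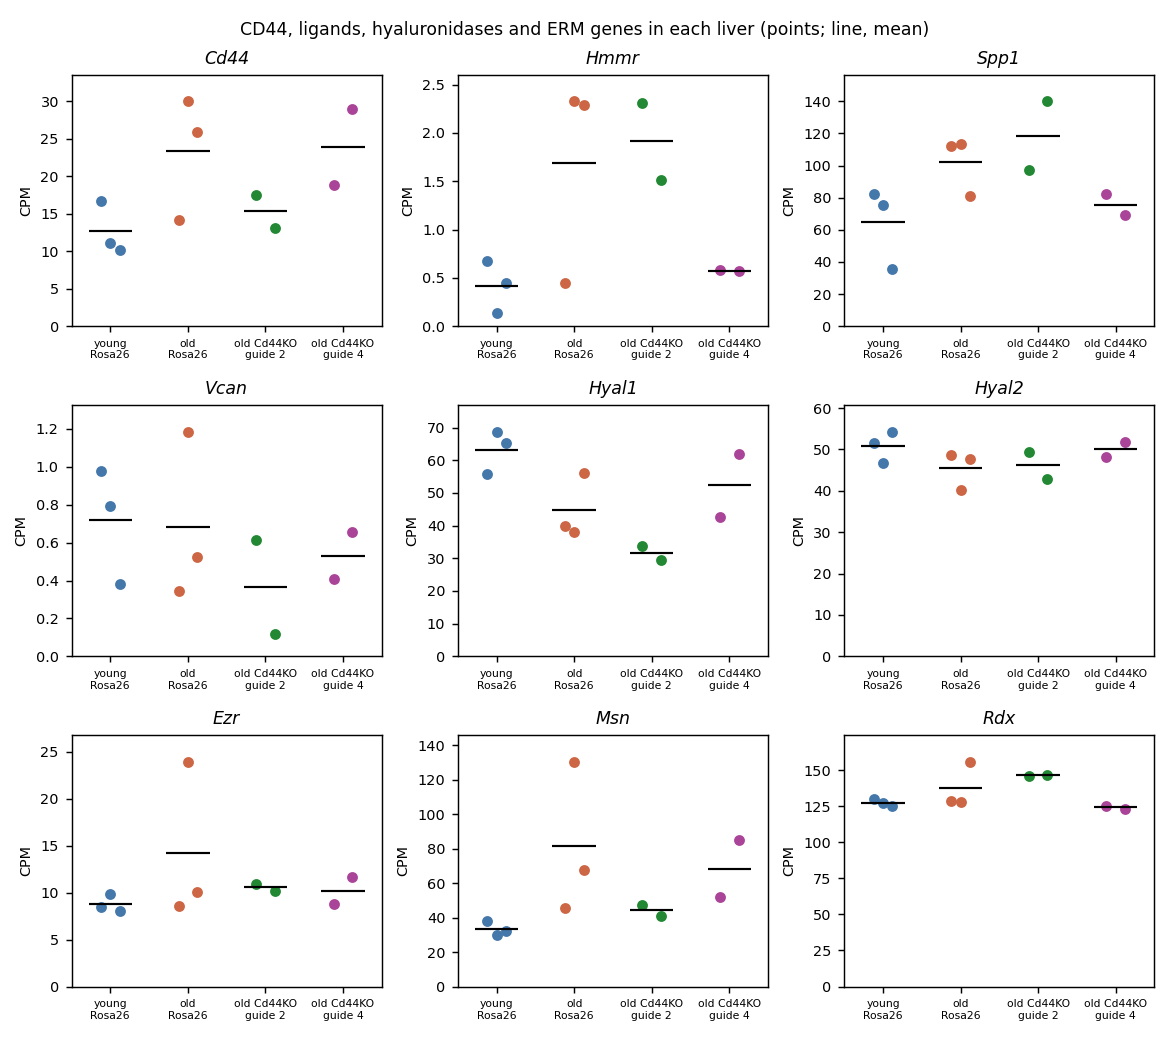
CPM of 9 members in each liver (points) with the mean of each arm (line), each panel on its own linear axis from 0; the x axis gives young Rosa26, old Rosa26 and old Cd44 knockout with guide 2 or guide 4. Msn in all 7 old livers (40.8 to 130.2 CPM) lay above the young livers (29.9 to 38.0 CPM), while Rdx and Hyal2 varied little.

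The levels of Cd44 were set beside markers of Kupffer cells and macrophages, which carry CD44. The 10 markers had counts in every group and none was at 0. Their summed CPM was 227.9 to 348.8 in young livers, 422.1 to 1586 in old controls and 346.7 to 748.9 in livers labelled knockout. The 3 livers with the highest sums, old control replicates 2 (1586) and 3 (897.9) and knockout replicate 2 (748.9), were the 3 with the most Cd44. With age 7 of the 10 markers were called higher and 0 lower, where 14.1% of all genes tested were called higher. The log2 fold change was positive for 8 and negative for 2. Marco and Cd14 had lower means in old controls (11.6 and 6.37 CPM) than in young livers (14.6 and 7.57 CPM). Vsig4, Cd68 and Csf1r led with log2 fold changes of 2.42, 2.11 and 2.06. Without old control replicate 2, 4 of the 10 were called higher, and 0 without young replicate 2. In whole tissue, more cells of a type and more RNA per cell cannot be told apart, and the part of these cells in the Cd44 values was not tested. T cell markers ranged from 5.13 to 5.87 summed CPM in young livers, 5.87 to 53.2 in old controls and 13.0 to 30.5 in livers labelled knockout. Old control replicate 3, with 25.9 CPM of Cd44, had a T cell sum of 5.87, and 5 of 10 T cell markers, led by Cd8a, Cd8b1 and Cd3e at log2 fold changes of 2.94, 2.79 and 2.32, were called higher with age (0 without old control replicate 2).

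Among all genes tested, those whose log2 CPM pattern over the 10 livers lay nearest to Cd44 were Myof, Siglece and Pola1. Their root mean square differences from Cd44 after centring were 0.17, 0.19 and 0.20 log2 units, against a median of 0.61 over all genes. Myof encodes the membrane repair protein myoferlin, Siglece a sialic acid receptor of myeloid cells, and Pola1 the catalytic subunit of DNA polymerase alpha. Since they were chosen for their likeness to Cd44 in these livers, no test of them between groups is given. Of the other members, Msn was nearest to Cd44, at 0.24 log2 units, followed by Ezr at 0.41.

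**Figure D2:**
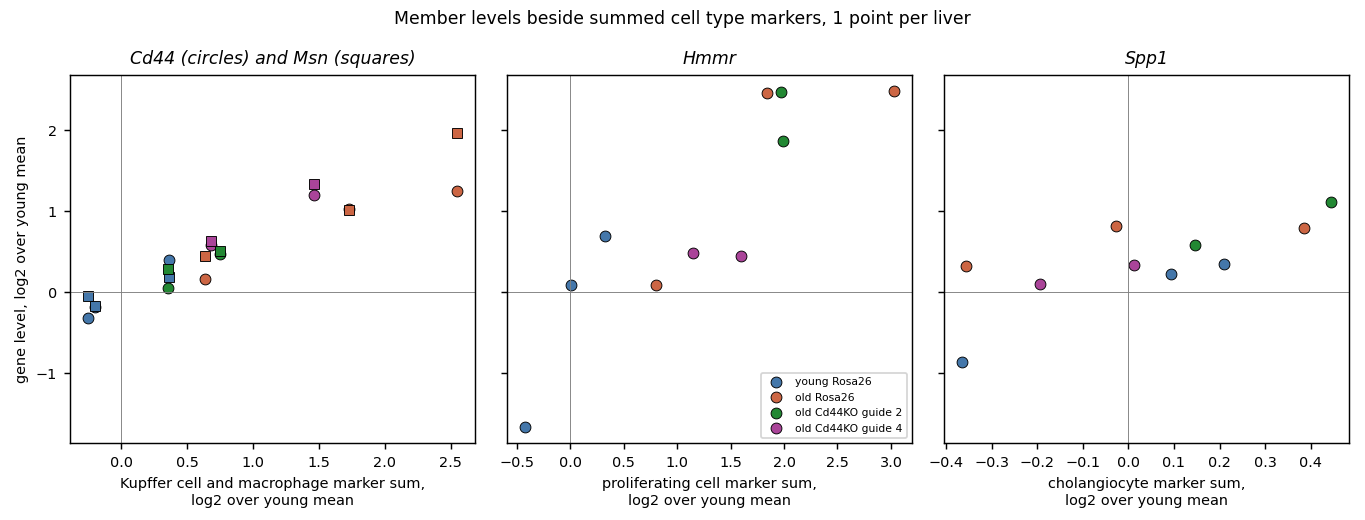
Level of Cd44 and Msn (left), Hmmr (middle) and Spp1 (right) against the summed CPM of macrophage, proliferating cell and cholangiocyte markers, each as log2 over the mean of the young livers, with 1 point per liver and gene. The livers with macrophage sums of 748.9 to 1586 CPM lie highest for Cd44 and Msn, and those with proliferation sums of 30.2 CPM or more lie highest for Hmmr.

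Moesin was the 1 member that edgeR called with age, while DESeq2 called Cd44, Hmmr and Msn. Msn (chromosome X, 96096042 to 96168552, plus strand) had 38.0, 29.9 and 32.4 CPM in young livers. Old controls had 45.8, 130.2 and 67.8 CPM in replicates 1 to 3. Guide 4 livers held 51.7 and 84.9 CPM, and guide 2 livers 47.5 and 40.8 CPM. Every old liver of either virus thus lay above every young liver. The rise between old and young controls was 2.43-fold, or 1.28 on the log2 scale with a 95% interval of 0.50 to 2.07 (SE 0.36) and an edgeR adjusted p of 0.0285.

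Msn was the 1 of 9 members called with age in edgeR, where 22.8% of the 13909 genes tested were called (14.1% higher). At 1 of 9, the called share of the members was no larger than that of all genes. Their groups of old and young controls did not overlap for 1 of 9, again Msn, against 37.7% of genes. Msn was also the 1 of 9 members higher in all 7 old livers than in all 3 young livers, against 13.5% of all genes tested. Between the livers labelled knockout and the young livers, which are the same young livers, the log2 difference of Msn was 0.75, with an SE of 0.34 and an edgeR adjusted p of 0.144. There edgeR called 0 of 9 members, against 11.6% of genes, while Msn and Hyal1 had an unadjusted p under 0.05 and DESeq2 also called 0. Groups did not overlap for 1 member (Msn), against 40% of genes. Msn had no call in the age comparison without old control replicate 2 (log2 fold change 0.76, edgeR adjusted p 0.116), without any 1 of the young livers, or when only these 6 livers were fitted (edgeR adjusted p 0.0541). Moesin is abundant in leukocytes and endothelium. The macrophage sums given for Cd44 and the 8 endothelial markers, which summed to 170.04 to 225.4 CPM in young livers and 333.3 to 361.5 in old controls, were higher in each old control than in each young liver. In livers labelled knockout the endothelial sum was 221.7 to 279.96 CPM and the macrophage sum 346.7 to 748.9 CPM, and both overlapped the young livers. None of the 8 was at 0, and their part in the Msn rise was not tested.

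Ezrin, which in liver is known from bile duct cells and other epithelia, did not pass. Ezr had 8.51, 9.83 and 8.05 CPM in young livers and 8.55, 23.9 and 10.1 CPM in old controls. The livers labelled knockout held 8.77 to 11.6 CPM. The high value was old control replicate 2, and the other 9 livers lay between 8.05 and 11.6 CPM. The log2 fold change with age was 0.69 (edgeR adjusted p 0.142, SE 0.33) and was 0.08 without that replicate. Ezr differed from the Msn pattern by 0.37 log2 units.

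Radixin varied least of the 9 members tested, with a ratio of highest to lowest liver of 1.26. Rdx (chromosome 9, 52047173 to 52088735, plus strand) had 129.9, 127.2 and 125.3 CPM in young livers and 128.6, 127.8 and 155.6 CPM in old controls. Guide 2 livers held 146.1 and 146.4 CPM, and guide 4 livers 125 and 123.2 CPM. Old control replicate 3 and the guide 2 livers were the 3 highest. Its log2 fold change with age was 0.11 (95% interval -0.18 to 0.39), so a change of more than 1.31-fold upward lay outside the interval. Between guides the log2 difference was -0.24, with an SE of 0.15 and an edgeR adjusted p of 0.99955.

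The balance among the 3 ERM genes followed moesin. Per kilobase of exon, radixin made up 77.6% ± 0.905 of the ERM sum in young livers (SD, n = 3), 64.8% ± 13.2 in old controls (SD, n = 3) and 70.9% ± 6.93 in livers labelled knockout (SD, n = 4). Moesin held 14.9% ± 1.49, 26.4% ± 9.5 and 21.5% ± 6.71 in the same groups. Old control replicate 2 had the lowest radixin share, 49.7%, and the highest moesin share, 37.2%. The young livers all held at least 76.5% radixin, and old controls at most 73.8%, so these groups did not overlap. The livers labelled knockout ran from 61.0% to 76.8% and overlapped the young range. The 3 shares of a liver add up to the whole, so a higher moesin share lowers the others. The CPM of Rdx itself overlapped between young livers and old controls. These shares were described without a test.

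**Figure D3:**
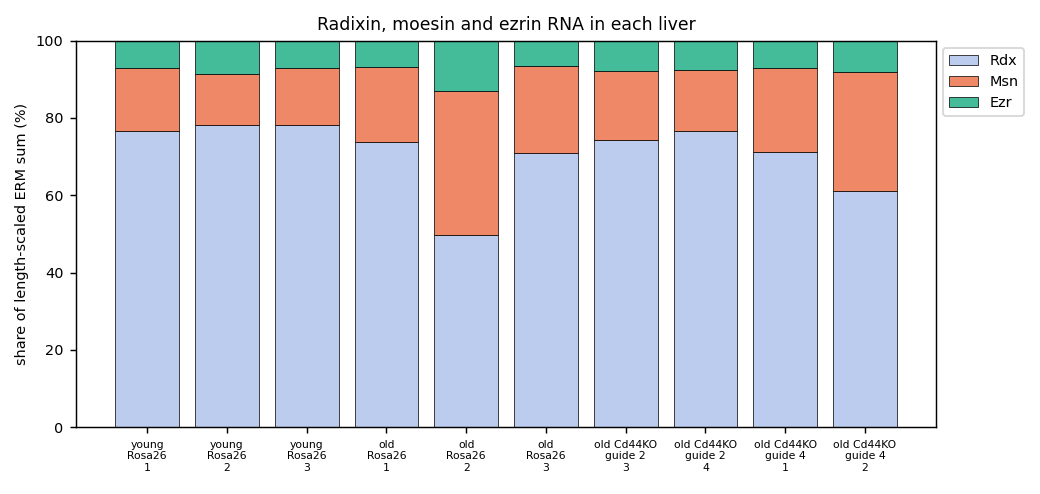
Share of radixin (Rdx), moesin (Msn) and ezrin (Ezr) in their summed level per kilobase of exon, 1 stacked bar per liver in percent, with the arm and replicate number on the x axis. Radixin is at least 76.5% in the young livers, and moesin reaches 37.2% in old control replicate 2 and 30.8% in knockout replicate 2.

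The ERM linkage and cortex were read as a list of 20 genes that holds Ezr, Msn and Rdx, all tested. With age 6 were called higher and 3 lower, where 22.8% of all genes tested were called and 14.1% were called higher. The median log2 fold change was 0.17 against 0.04 over all genes tested. Among those called higher, Spn (CD43, a leukocyte mucin that binds moesin) changed by 3.09 log2 units (edgeR adjusted p 0.0159), and Ank3 (ankyrin-G, a spectrin adaptor) by 1.504 (edgeR adjusted p 0.00963). Icam2 (an endothelial and leukocyte adhesion protein) and Iqgap1 (an actin scaffold) rose by 1.29 and 1.27, with edgeR adjusted p of 0.0199 and 0.0149. Msn itself and Stk10, a kinase that phosphorylates ERM proteins, at 0.95 (edgeR adjusted p 0.0491), complete the 6. Among those called lower, Actg1 (gamma actin) had -0.88 (edgeR adjusted p 0.0312). Slc9a3r1, the ERM-binding scaffold NHERF1 of apical membranes, averaged 270.6 ± 13.3 CPM in young livers and 183.8 ± 28.5 in old controls (SD, n = 3 each, edgeR adjusted p 0.022). Nf2 (merlin, an ERM relative) averaged 45.9 ± 1.17 and 35.4 ± 1.47 CPM (SD, n = 3 each, edgeR adjusted p 0.0331). Leaving out 1 liver at a time gave 0 (without young replicate 2) to 7 called higher and 0 to 4 lower, with 1 and 1 without old control replicate 2. In the same comparison 7 of 10 macrophage, 5 of 10 T cell and 7 of 8 endothelial markers were called higher, and their part in this list was not tested.

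Between the livers labelled knockout and young livers, 2 of these 20 genes were called higher and 3 lower, against 11.6% of all genes tested called in either direction. Ank3 rose by 1.36 and Spn by 2.79 on the log2 scale, with edgeR adjusted p of 0.0192 and 0.0342. Actg1, Epb41 (the spectrin-actin linker protein 4.1R) and Slc9a3r1 fell by 0.97, 0.53 and 0.46, with edgeR adjusted p of 0.03, 0.0342 and 0.0466. The young livers are shared with the age comparison, and the livers labelled knockout differ from them in age as well as in guide. This comparison called 1614 genes, and 56 without young replicate 2. Calls of this list against young livers were not counted again without each liver.

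Hmmr encodes a hyaluronan-binding protein that also sits on the mitotic spindle of dividing cells. Hmmr (chromosome 11, 40701395 to 40733422, minus strand) had 11, 2 and 7 counts in young livers, or 0.673, 0.132 and 0.443 CPM. Old controls had 0.442, 2.32 and 2.29 CPM. Guide 2 livers had 2.31 and 1.52 CPM and guide 4 livers had 0.581 and 0.567 CPM. The livers fell into 4 above 1.5 CPM (old control replicates 2 and 3 and both guide 2 livers) and 6 below 0.7 CPM, a split that did not follow age alone.

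Hmmr had a log2 fold change with age of 1.99 (SE 0.77, 95% interval 0.29 to 3.69, edgeR adjusted p 0.0832). It was called by DESeq2, with an adjusted p of 0.0401. Guide 4 against guide 2 gave -1.73 (SE 0.76), with both guide 4 livers lower and an edgeR adjusted p of 0.99955. The genes nearest in pattern were Prc1, Nuf2 and Kif2c, at 0.40, 0.40 and 0.41 log2 units against a median of 1.13, all of which encode proteins of the mitotic spindle or kinetochore. The 10 markers of proliferating cells summed to 6.27 to 10.53 CPM in young livers. In old controls they summed to 14.6, 68.6 and 30.2 CPM, in guide 4 livers to 18.7 and 25.4 CPM, and in guide 2 livers to 33.0 and 33.5 CPM. The 4 livers highest in Hmmr had the 4 highest sums. With age 8 of the 10 were called higher (3 without old control replicate 2 and 0 without young replicate 2), against 14.1% of all genes tested. Among them were Ccnb1, Mki67 and Aurkb with log2 fold changes of 3.21, 3.08 and 2.76. The part of dividing cells in the Hmmr values was not tested.

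The ligand osteopontin, a secreted phosphoprotein known in liver from bile duct cells and activated macrophages, had the highest mean level per kilobase of exon in young livers. Spp1 (chromosome 5, 104435118 to 104441050, plus strand) had 82.4, 75.7 and 35.7 CPM in young livers and 111.9, 113.6 and 81.04 CPM in old controls. Guide 2 livers had 97.2 and 139.9 CPM, and guide 4 livers had 82.0 and 69.4 CPM. Young replicate 3 was lowest by a wide margin, and old control replicate 3 and both guide 4 livers lay inside or below the range of the other young livers. The log2 fold change with age was 0.66 (95% interval -0.03 to 1.36, edgeR adjusted p 0.148), and it was 0.37 without young replicate 3. Between the livers labelled knockout and the old controls the ratio was 0.95, with an interval of 0.608 to 1.49.

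Spp1 was set beside cholangiocyte markers. The 7 markers all had counts in each group and summed to 29.2 to 43.5 CPM in young livers, 29.4 to 49.2 in old controls and 32.9 to 51.2 in livers labelled knockout. The liver with the most Spp1, knockout replicate 4, had the highest sum (51.2), and the one with the least, young replicate 3, had the lowest (29.2). Other livers did not keep this order. Old control replicate 2, second in Spp1, had a sum of 36.9 CPM, below young replicates 1 and 2 (43.5 and 40.1), and old control replicate 3 had 29.4 CPM. None of the 5 markers tested was called with age, against 22.8% of all genes tested, and their part in the Spp1 values was not tested. The genes nearest to Spp1 in pattern were 5830454E08Rik, Ptgr1 (a reductase of prostaglandins and leukotrienes) and Ccrl2 (a chemerin-binding receptor), at 0.21, 0.22 and 0.26 log2 units against a median of 0.59. Of these, 5830454E08Rik was close to the floor, with 0.190 CPM in young replicate 3 and at most 0.817 CPM. Exons of Spp1 share 309 bases, or 18.8%, with the unnamed gene model Gm42793 on the same strand.

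Versican, a large hyaluronan-binding proteoglycan, was close to the floor. Vcan had 2 to 26 counts per liver, with 0.979, 0.792 and 0.38 CPM in young livers and 0.344, 1.19 and 0.525 CPM in old controls. Guide 4 livers had 0.407 and 0.654 CPM, and guide 2 livers 0.612 and 0.117 CPM. Old control replicate 2 was highest and a guide 2 liver lowest. The old-to-young ratio was 0.96 with a 95% interval of 0.385 to 2.39. A rise or fall within those bounds cannot be told from no change with these livers and counts. The nearest genes in pattern were Hcar2 (a metabolite receptor), Cd14 (a co-receptor for endotoxin) and Serpina3f (a protease inhibitor), at 0.29, 0.41 and 0.41 log2 units against a median of 0.76.

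Matrix and secreted ligands were read as a list of 10 that holds Spp1, of which 9 were tested. With age 4 were called higher and 0 lower, against 14.1% of all genes tested called higher, and the median log2 fold change was 1.02. These were Hbegf (an EGF-family growth factor, 1.39), Hgf (the ligand of MET, 1.04), Col3a1 (a fibrillar collagen, 1.04) and Srgn (the leukocyte proteoglycan serglycin, 0.997), with edgeR adjusted p of 0.0265, 0.0363, 0.0416 and 0.04. Without old control replicate 2, as without young replicate 2, 0 of the list were called higher. Fn1 (fibronectin) had -0.13 and Mmp9 (a gelatinase held by CD44) 1.73, with edgeR adjusted p of 0.808 and 0.0828. The 9 stellate cell and fibroblast markers summed to 158.9 to 246.5 CPM in young livers, 310.4 to 485.9 in old controls and 272.2 to 319.4 in livers labelled knockout. Of these markers 7 were called higher with age (4 without old control replicate 2), among them Colec11, Lum and Lrat with log2 fold changes of 1.32, 1.21 and 1.19. None was at 0, and their part in the ligand values was not tested.

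Hyaluronan synthesis was carried by few reads. Has2 had its 1 count in guide 4 replicate 1, Has1 had 0 to 2 counts per liver and Has3 2 to 16 counts. Has3 had 0.522 ± 0.340 CPM in young livers and 0.525 ± 0.251 in old controls (SD, n = 3 each), with an edgeR adjusted p of 0.996. For Has2, fewer than 3 counts were present in every liver, so a change was not detectable at this depth. Of the enzymes that supply the sugar precursors, Ugdh, which makes UDP-glucuronic acid, fell with age, from a mean of 427.8 ± 97.2 CPM to 235 ± 65.6 (SD, n = 3 each, edgeR adjusted p 0.0229), or -0.86 on the log2 scale. It was the 1 of 8 tested genes of this list called with age, against 22.8% of all genes tested. All 8 had a negative fitted log2 fold change, although that of Has3 was -0.0044, and the median was -0.48. Gfpt1, the entry enzyme of the hexosamine pathway, had -0.80 (edgeR adjusted p 0.0953) and Ugp2 (UDP-glucose synthesis) -0.62 (edgeR adjusted p 0.0511). These enzymes also feed glucuronidation and glycosylation. The 8 hepatocyte markers had the same median log2 fold change with age, -0.48, with 7 of 8 negative, and their part in the precursor values was not tested. Without old control replicate 2, 0 of the list were called, and without old control replicate 3, 4 were called lower.

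The hyaluronidases themselves did not pass. Hyal1 (chromosome 9, 107576927 to 107581710, plus strand) had 55.7, 68.7 and 65.3 CPM in young livers and 40.01, 37.97 and 56.1 CPM in old controls. Guide 4 livers held 42.6 and 61.95 CPM, and guide 2 livers 33.8 and 29.4 CPM. Old control replicate 3 and 1 guide 4 liver reached into the young range, and the guide 2 livers were the lowest of all 10. Old against young controls gave -0.50 for Hyal1 on the log2 scale, with an SE of 0.25 and an edgeR adjusted p of 0.168. Guide 2 against old control gave -0.50 (SE 0.22, unadjusted p 0.0425, edgeR adjusted p 0.688), and guide 4 against guide 2 gave 0.73 (SE 0.23, unadjusted p 0.0109, edgeR adjusted p 0.815). Against young livers, the livers labelled knockout gave -0.59 (edgeR adjusted p 0.108), and Hyal1 passed there without knockout replicate 2 (log2 fold change -0.84, edgeR adjusted p 0.0463).

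Hyal1 lies in a dense cluster in which its reads may be shared. Of its 3777 exon bases, 1920 (50.8%) are also exon of Naa80 on the same strand, and 159 (4.21%) of Hyal3. The table lists Nat6, an older name of Naa80 in RefSeq that is also given there as a synonym of Hyal1. Nat6 had 63.2 to 71.02 CPM in young livers, 48.5 to 73.6 in old controls and 53.5 to 70.3 in livers labelled knockout, with a log2 fold change of -0.26 with age (edgeR adjusted p 0.301). How reads of the shared exons were assigned is not given in the sources used here, so the Hyal1 level is uncertain.

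Hyal2 (chromosome 9, 107567945 to 107572779, plus strand) had 51.5, 46.8 and 54.3 CPM in young livers and 48.6, 40.2 and 47.7 CPM in old controls. Livers labelled knockout held 42.9 to 51.9 CPM, and all groups overlapped. The log2 fold change was -0.16 with age (95% interval -0.43 to 0.11) and 0.08 with the Cd44 guide (95% interval -0.17 to 0.33). Hyal2 and Rdx, both nearly flat, lay 0.19 log2 units apart in pattern.

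Of a list of 8 genes for hyaluronan breakdown that holds Hyal1 and Hyal2, 7 were tested, and 2 were called higher with age and 0 lower, with a median log2 fold change of 0.27. Of all genes tested, 22.8% were called and 14.1% were called higher. Tmem2, a hyaluronidase of the cell surface, had 9.76 ± 1.19 CPM in young livers and 14.2 ± 2.23 CPM in old controls (SD, n = 3 each, edgeR adjusted p 0.049). Without old control replicate 2, 0 of the 7 were called. Tmem2 had 9.46 ± 1.33 CPM in livers labelled knockout (SD, n = 4), a log2 difference of -0.58 from old controls that did not pass (edgeR adjusted p 0.744). All 4 lay below the old controls, and 6.1% of all genes tested had groups that did not overlap in this comparison. Hyal3 had 7 to 17 counts per liver and an edgeR adjusted p of 0.159 with age. Its 0.639 to 0.742 CPM in livers labelled knockout lay above the 0.334 to 0.442 CPM of old controls, and it was not called. Cemip, a secreted hyaluronan depolymerase, had 0 to 2 counts.

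Stabilin-2, the endothelial clearance receptor, rose with age. Stab2 had 27.6, 16.0 and 29.8 CPM in young livers and 55.5, 44.6 and 47.2 CPM in old controls, a rise of 1.01 on the log2 scale with an SE of 0.22 and an edgeR adjusted p of 0.0131. Stab1, its relative on endothelium and macrophages, rose by 0.90 (edgeR adjusted p 0.0188, SE 0.22). The livers labelled knockout had 26.3 to 37.7 CPM of Stab2, all below the old controls. That log2 difference of -0.69 (SE 0.20) did not pass, with an edgeR adjusted p of 0.744. Of all genes tested, 6.1% had groups that did not overlap in this comparison. Lyve1, a further endothelial receptor of hyaluronan, had 8.11 to 11.3 CPM in young livers and 5.72 to 26.9 in old controls (edgeR adjusted p 0.324), and Layn (layilin) had an edgeR adjusted p of 0.325. Stab1 and Stab2 were the 2 genes called, both higher, among 15 tested of 19 receptors and binding proteins, a share close to the 14.1% of all genes tested that were called higher. The list's median log2 fold change was 0.08, 2 were called higher without old control replicate 2, and 0 without young replicate 2. Of the 8 endothelial markers, 7 were called higher with age (4 without old control replicate 2), among them Cdh5, Fcgr2b and Eng with log2 fold changes of 1.14, 0.99 and 0.98, and their part in the stabilin values was not tested.

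Membrane partners and sheddases of CD44 were read as a list of 14, all tested. With age 2 were called higher and 0 lower, a share close to the 14.1% of all genes tested called higher, and the median log2 fold change was 0.29. Cd74, the receptor chain that signals with CD44 on binding MIF, averaged 66.9 ± 15.3 CPM in young livers and 315.5 ± 299.3 in old controls (SD, n = 3 each). This was a rise of 2.24 on the log2 scale with an edgeR adjusted p of 0.0289. Old control replicate 2 held 656.2 CPM of it. That liver also had the highest macrophage marker sum (1586 CPM) and the highest sum of B and plasma cell markers (34.8 CPM, against 3.76 to 30.04 in the other 9 livers), and the part of these cells in the Cd74 values was not tested. Mmp14, a membrane protease that sheds CD44, rose by 0.91 (edgeR adjusted p 0.0169). Without old control replicate 2, 0 of the 14 were called. Adam10, Adam17, Mif and Met had log2 fold changes between -0.01 and 0.32, none called. Egfr differed by -1.11 with age (edgeR adjusted p 0.0768). In livers labelled knockout, which were also older, it was lower than in young livers, at 194.5 ± 50.9 CPM (SD, n = 4), against 597.7 ± 116.9 CPM (SD, n = 3, edgeR adjusted p 0.0299). Of 7 regulators of CD44 splicing, 6 were tested and 0 called in edgeR (0 at an unadjusted p under 0.05), with a median log2 fold change of -0.10 with age. Fits that left out 1 liver called 0 as well. Counts per gene do not separate the standard and variant isoforms of CD44.

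**Figure D4:**
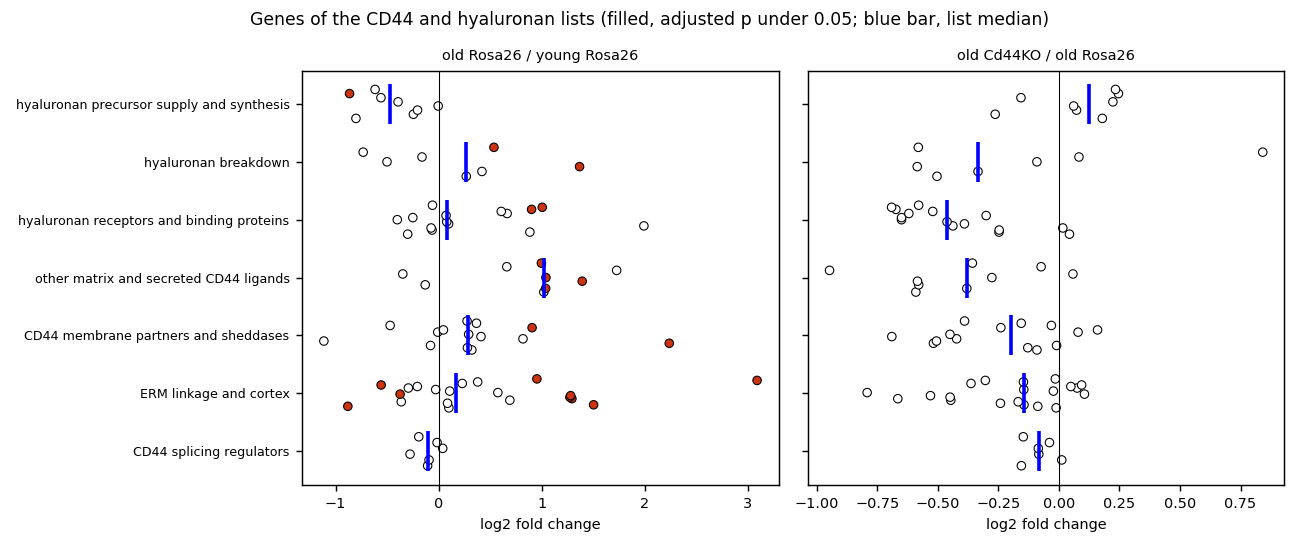
Log2 fold change of each tested gene (points) in 7 lists around CD44 and hyaluronan, for old against young controls (left) and for livers labelled Cd44 knockout against old controls (right), with a blue bar at the list median and filled points at an adjusted p under 0.05. The ligand list has its median at 1.02 with age and the precursor list at -0.48, and no gene is filled on the right, where the x axis is narrower.

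Between the livers labelled knockout and the old controls, 0 of the 9 members passed, with edgeR adjusted p between 0.794 and 0.986, against a background of 0% of genes called. At an unadjusted p under 0.05 there were 916 genes and none of the members, and DESeq2 called 8 genes and 0 members. The log2 fold change was negative for 8 of 9 members, with a median of -0.25 against -0.02 over all genes tested. The largest was Vcan at -0.58 (SE 0.57), followed by Msn at -0.53 (SE 0.33), Ezr at -0.45 (SE 0.30) and Hmmr at -0.44 (SE 0.63). These sizes rested on old control replicate 2. Without it the values were 0.076 for Vcan, -0.013 for Msn, 0.16 for Ezr, -0.14 for Hmmr and -0.026 for Cd44, and 5 of the 9 members were negative. The groups overlapped for all 9 members, whereas 6.1% of genes had groups that did not overlap.

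**Figure D5:**
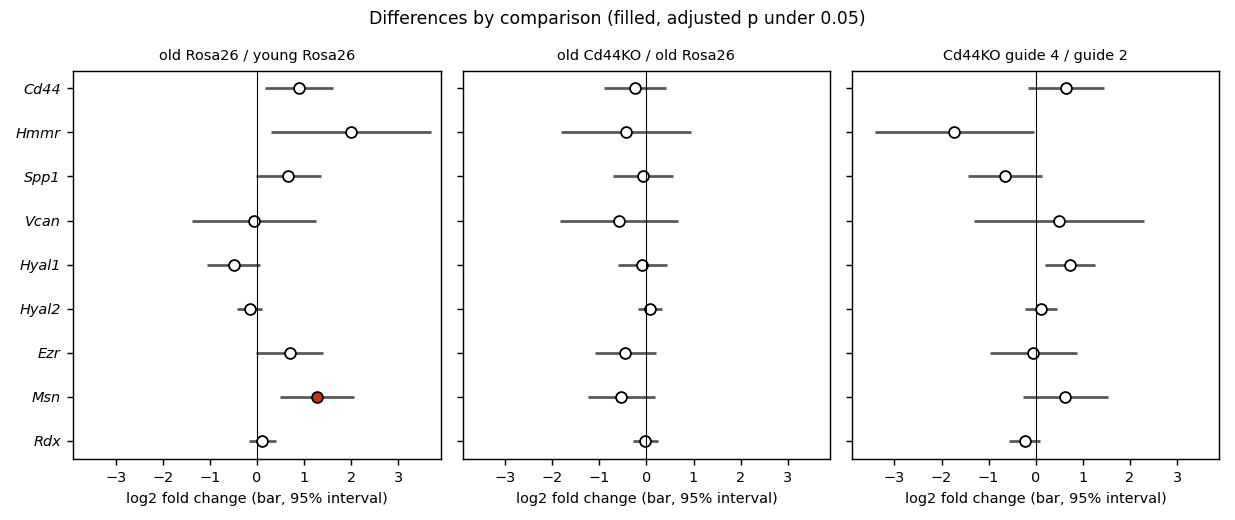
Log2 fold change (points) and 95% interval (bars) of 9 members for old against young controls, livers labelled Cd44 knockout against old controls, and guide 4 against guide 2. Msn in the age comparison is the 1 filled point, at 1.28, and every interval of the knockout comparison includes 0.

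The guides were compared with 2 livers each. None of the 9 members passed between guides in edgeR (adjusted p 0.815 for Hyal1 and 0.99955 for the other 8), and 0.0216% of genes did. At an unadjusted p under 0.05 there were 603 genes, among them Hyal1 and Hmmr, and DESeq2 called 73 genes and 0 members. For 6 of the 9 members the 2 guide 4 livers lay wholly above (Cd44, Hyal1, Msn) or below (Hmmr, Spp1, Rdx) the 2 guide 2 livers, against 38.6% of all genes tested. The log2 differences were 0.64 for Cd44, 0.73 for Hyal1, 0.63 for Msn, -1.73 for Hmmr, -0.65 for Spp1 and -0.24 for Rdx. Guide 4 livers had macrophage marker sums of 434.4 and 748.9 CPM, which overlapped the 455.4 and 346.7 CPM of guide 2 livers. Against the same old controls, edgeR called 0 of 9 members for either guide, against 0.0216% of genes for guide 2 and 0% for guide 4, and DESeq2 called 107 genes and 1 gene. Hyal1 and Msn for guide 2 had an unadjusted p under 0.05 (979 genes), and none of the members did for guide 4 (544 genes). The groups did not overlap for Hyal1 with guide 2 (lower) and Rdx with guide 4 (lower), 1 of 9 members each, against 19.6% and 14.8% of genes. A liver's guide and its other differences cannot be told apart with 2 livers each.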

How the data were processed

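RNA-seq of 10 whole mouse livers was analysed, with groups taken from the sample titles and replicate numbers given in record order. Per the labels' protocols, polyadenylated RNA was prepared with the Watchmaker mRNA kit and read as pairs of 75 bases. The authors deposited raw counts per gene symbol, not normalized. The submitters' processing notes name mm10, FastQC 0.11.8, Trim Galore 0.4.4, STAR 2.5.3a and HOMER. The counting step, its annotation and its use of strand are not given in the sources used here.

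Counts were fitted over all 10 libraries with edgeR 4.0.16 in R 4.3.3 (quasi-likelihood test, TMM factors, filterByExpr with a minimum count of 10 and total of 15), which left 13909 genes. P-values were adjusted by Benjamini-Hochberg over all of them, with calls under 0.05. A standard error is the log2 fold change over the square root of F. Guides used a fit with 4 arms. DESeq2 1.42.0, other size factors, no filter, only the livers compared and leaving out each liver were alternatives. Patterns were compared as log2 CPM with a prior count of 2. Named genes are the members, the fixed hyaluronan enzymes and receptors, up to 5 called genes per pathway list and 3 per marker list with the largest change, and the 3 nearest patterns of 4 members; Actg1, Slc9a3r1, Nf2 and Stk10 with age, and list genes without a call, were named after their values were seen. Steps were tested on simulated counts. The members and lists were chosen with earlier results of these data known. Positions are GENCODE M21 on GRCm38. Intervals cover 95%, and floors cover counting error only. Values of 1 gene counted in a list are not reported here.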

Additional observations from a re-analysis of the deposited data

How the results depend on the processing

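No paired analysis was possible because replicates here were numbered in record order, which ties no liver to another. Of 216 member fold changes under DESeq2, other size factors, no filter or only the livers compared, 212 kept their direction and their side of the threshold, 1 lost its call, 3 gained one and 0 changed sign. DESeq2 called 3 members with age (Cd44 at a log2 fold change of 0.89) and 8, 2803, 73, 107 and 1 genes for knockout against old control, knockout against young, guide 4 against guide 2, and guides 2 and 4 against old control, where edgeR called 0, 1614, 3, 3 and 0. Fitting only the livers compared gave 1192 genes with age (3172 in the fit of all livers), 4223 genes and 1 member (Msn) for knockout against young, 36 between guides and 1 for guide 2 against old control. Without a filter 10 genes were called between guides and 25 for guide 2 against old control. Without length scaling, ezrin shares were 5.19% in young livers and 5.14% in livers labelled knockout, and moesin and radixin shares in young livers were 19.7% and 75.1%.

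Leaving out 1 liver at a time, the age comparison called 396 (without young replicate 2) to 5327 genes (without old control replicate 3) and 0 to 4 members (Cd44, Hmmr, Ezr and Msn without old control replicate 1), with Cd44 at 0.66 to 1.14. Knockout against old control called 0 to 3 genes and 0 members. Knockout against young called 56 (without young replicate 2) to 1652 genes and 0 to 1 members. No gene was called between guides and for guide 4 against old control in these fits, and 0 to 3 for guide 2. Some log2 fold changes of members that were not called changed sign. With age this was Vcan (-0.72 to 0.25). For knockout against old control these were Hyal1 (-0.34 to 0.11), Vcan (-0.89 to 0.076), Spp1 (-0.30 to 0.057), Ezr (-0.71 to 0.16) and Rdx (-0.072 to 0.078). Between guides these were Vcan (-0.19 to 2.14) and Ezr (-0.27 to 0.14). For guide 2 against old control these were Hmmr (-0.26 to 0.49), Hyal2 (-0.081 to 0.12), Spp1 (-0.072 to 0.46) and Ezr (-0.68 to 0.19). For guide 4 against old control these were Cd44 (-0.31 to 0.31), Hyal1 (-0.069 to 0.47), Vcan (-0.75 to 0.30), Ezr (-0.73 to 0.14) and Msn (-0.65 to 0.27). The cause was not tested. Where an arm was left with 1 liver, that liver was assumed to vary like the other groups. Repeating the list counts without each liver was chosen after seeing the data. Members with few counts (Hmmr, Vcan, Has2) are limited by depth.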
